A study of Rattus norvegicus with 63 samples.

Results

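Cortexin 1 (Ctxn1) was measured by 1 probe set, L15011_at, out of 1263 probe sets for rat transcripts on the Affymetrix Rat Neurobiology U34 array, which stand for 720 named genes. The probe set was taken because Ctxn1 is its only gene symbol in the platform annotation. The gene itself was chosen by its log2 signal over all 63 arrays, which was known to differ in the lateral hypothalamus between rats with and without cocaine access. For that reason its levels, their order across regions and its differences between access groups are a description with no test.

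Rats in 3 groups of 8 were given no daily access, 1 h of access or 6 h of access to intravenous cocaine self-administration, at 0.25 mg per injection. They are called no, short and long access rats here, and the no access rats were cocaine naive. The nucleus accumbens, amygdala and lateral hypothalamus had 4 arrays per access group, and the medial prefrontal cortex, septum and ventral tegmental area had 3, which makes 63 arrays in 18 groups. Strain, sex, age and the number of rats behind each array are not given in the sources used here, so that errors and p-values measure the spread between arrays.

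Cortexin 1 is a small neuronal protein that crosses the membrane once. It was first isolated from rat brain as a transcript enriched in the cerebral cortex, and it is known from neurons of the forebrain, while its molecular role is not well defined. In tissue pieces such as these, fewer cells of a type and less RNA per cell cannot be told apart.

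The gene lies on the minus strand of chromosome 12, at chr12:7408308-7409919 of the GRCr8 build in the RefSeq table, and spans 1612 bases. The 250 bases before its annotated start are shown to place the gene in its sequence context, since the arrays measured the transcript and nothing at the promoter. They come from RefSeq on GRCr8, chr12:7409920-7410169, read on the minus strand, and capitals mark the GC box letters GGGCGG and their reverse complement CCGCCC.
Ctxn1: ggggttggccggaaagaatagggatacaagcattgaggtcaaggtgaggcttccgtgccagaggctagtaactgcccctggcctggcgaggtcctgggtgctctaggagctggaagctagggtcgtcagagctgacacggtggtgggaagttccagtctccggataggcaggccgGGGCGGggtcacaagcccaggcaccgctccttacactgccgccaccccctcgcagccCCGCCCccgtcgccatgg
The stretch was 65.2% G or C and held 14 CpG dinucleotides, against medians of 52.0% and 6 over the same window of 27457 rat genes. At least 1 GC box on either strand was present in 32.4% of those windows, and at least as many as in Ctxn1, 2, in 16.1%.

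Values are log2 of the MAS5 signal after each array was scaled to a trimmed mean of 500, and signals under 32 were set to 32, a log2 of 5. Th and Oxt, read as region markers, were highest in the ventral tegmental and the lateral hypothalamic arrays. How closely each dissection kept to its region was not tested. Th, the rate-limiting enzyme of catecholamine synthesis, was 13.47 to 13.75 in ventral tegmental arrays and at most 9.73 elsewhere. Oxt, the oxytocin precursor, was 12.90 to 13.25 in lateral hypothalamic arrays. Elsewhere it was at most 11.52, in the amygdala, where it ran from 5.82 with a median of 9.99.

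Lateral hypothalamic arrays from no access rats stood apart on control probe sets before any gene was compared. The mean of 6 antisense rat controls, which are made to match the strand that is not transcribed, was 8.13 ± 0.21 there, against 6.84 ± 0.17 with short and 6.75 ± 0.15 with long access (SD, n = 4 each). The mean of 9 bacterial spike-in controls was 12.05 ± 0.14 with no, 11.61 ± 0.27 with short and 11.39 ± 0.12 with long access. In the ventral tegmental area the order was the other way, with antisense means of 7.10 ± 0.03, 7.41 ± 0.08 and 8.04 ± 0.19 in the no, short and long access arrays (n = 3 each). The labels give no batch, and the part of these control differences in the Ctxn1 values was not tested beyond a fit with the spike-in mean as a covariate, whose values stand beside the results of these 2 regions.

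Ctxn1 signal was highest in the forebrain dissections and lowest in the midbrain. Over all access groups it was 12.75 ± 0.12 in the medial prefrontal cortex (n = 9), 12.53 ± 0.24 in the nucleus accumbens (n = 12) and 12.17 ± 0.50 in the amygdala (n = 12). The septum followed at 11.18 ± 0.19 (n = 9), then the lateral hypothalamus at 10.39 ± 0.89 (n = 12) and the ventral tegmental area at 8.36 ± 0.28 (n = 9). The SD of the lateral hypothalamus was the widest of the 6 regions.

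The same order of the means was found in each access group. Between the medial prefrontal cortex and the ventral tegmental area the fold was 20.9 in no, 25.4 in short and 17.4 in long access rats. Neighbours at the top of the order did not separate, since the arrays of the medial prefrontal cortex overlapped those of the nucleus accumbens, and these overlapped the amygdala, in all 3 access groups.

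Lower in the order, the neighbours that separated depended on access. In no access rats, every amygdala array was above every septum array, every septum array above every lateral hypothalamic array, and every lateral hypothalamic array above every ventral tegmental array. In short access rats the septum and the lateral hypothalamus overlapped, and in long access rats the amygdala, the septum and the lateral hypothalamus each overlapped the next. The lateral hypothalamus was above the ventral tegmental area without overlap in all 3 groups.

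**Figure D1:**
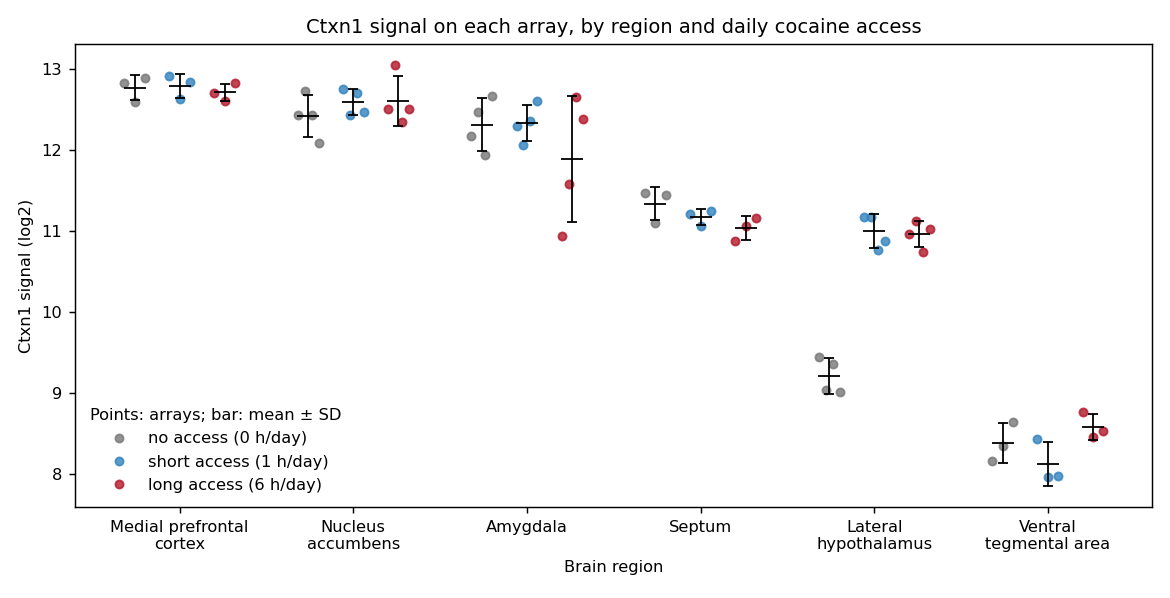
Each point is the log2 signal of Ctxn1 on 1 array, by region and access group, with bars for the mean and SD (n = 4 arrays per group in the nucleus accumbens, amygdala and lateral hypothalamus, 3 in the others). All 8 lateral hypothalamic arrays of rats with access lie between 10.74 and 11.18, above the 4 arrays of no access rats, which lie between 9.01 and 9.45.

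In the lateral hypothalamus the Ctxn1 signal was low in cocaine naive rats and higher with either length of access. The 4 no access arrays read 9.45, 9.04, 9.36 and 9.01. The 4 short access arrays read 11.18, 11.17, 10.77 and 10.88. The 4 long access arrays read 10.96, 11.12, 10.74 and 11.02. All 8 arrays of rats with access were above all 4 arrays of rats without it, and the short and long access arrays overlapped.

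The step was already present in the deposited signals, before any rescaling. They were 326.0, 246.0, 306.2 and 240.9 in no access rats, 1085.9, 1073.8, 817.9 and 879.7 in short access rats, and 942.1, 1041.8, 806.0 and 977.8 in long access rats.

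On the log2 scale long access exceeded no access by 1.75 ± 0.13 (SE, 95% interval 1.47 to 2.02), a 3.36-fold higher signal, and short access exceeded no access by 1.79 ± 0.13 (1.51 to 2.06), or 3.45-fold. By size these were the third and the first of 718 probe sets measured in the region. The difference between long and short access was -0.04 ± 0.13 (-0.31 to 0.24), so that 6 h and 1 h of access were not told apart at this number of arrays.

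These differences stand among many in the region. With limma and Benjamini-Hochberg adjustment at 0.05, 29.7% of the 718 probe sets were called for long against no access, 13.4% higher and 16.3% lower. For short against no access 22.4% were called, 10.3% higher and 12.1% lower, and for long against short access 8.91%. Arrays that did not overlap, with the access group above, were seen in 13.8% of probe sets with long access and in 11% with short access. The median absolute difference over the 718 was 0.24 with long and 0.23 with short access.

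A fit with the spike-in mean of each array as a covariate was also made. In it the lateral hypothalamic difference of Ctxn1 from no access was 2.04 ± 0.24 with long and 1.98 ± 0.19 with short access. The spike-in mean itself differed between the access groups here, so that this fit cannot separate its part from that of access. The antisense mean was not fitted. The ratio of 3′ to 5′ probe sets of beta-actin, a measure of RNA integrity on these arrays, had a log2 mean of 0.25 ± 0.17 in no, 0.36 ± 0.08 in short and 0.20 ± 0.07 in long access arrays (SD, n = 4 each).

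The lateral hypothalamus kept its place between the septum and the ventral tegmental area, and its distance from both differed with access. It was above the ventral tegmental area by 2.38 ± 0.12 in long, 2.87 ± 0.19 in short and 0.83 ± 0.18 in no access rats (log2 difference of means ± SE). It was below the septum by a log2 difference of -2.12 ± 0.16 in no access rats, against -0.17 ± 0.12 with short and -0.07 ± 0.12 with long access.

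**Figure D2:**
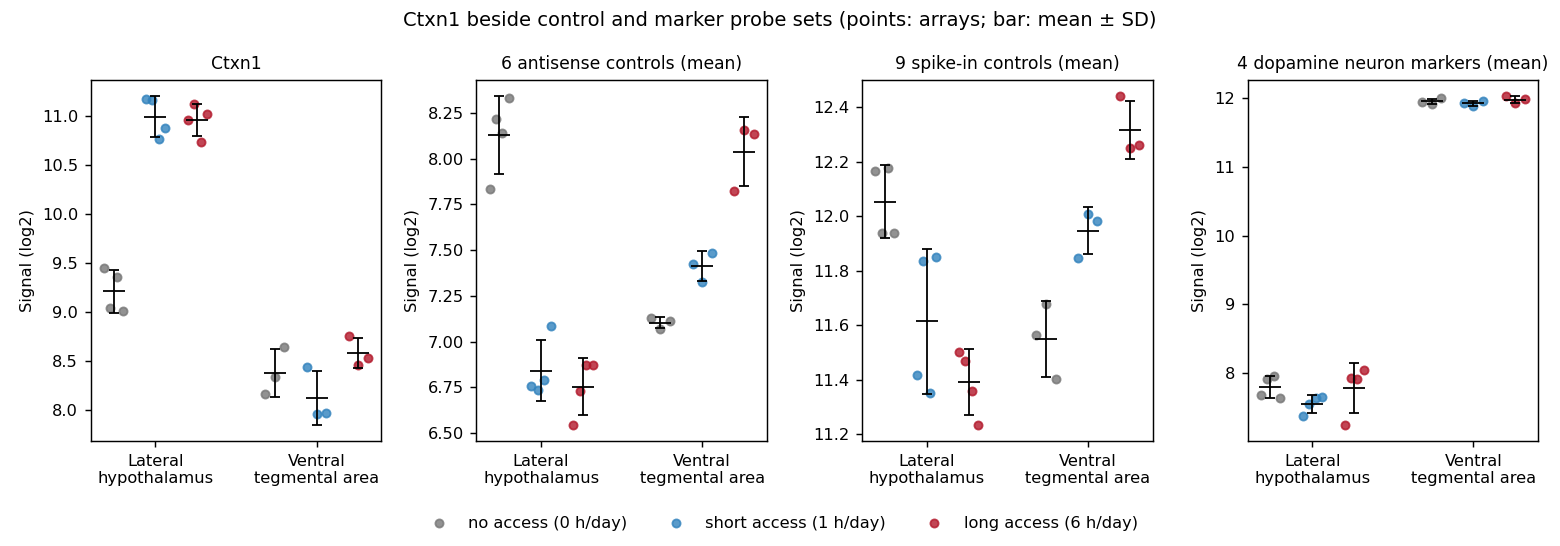
The 4 panels plot, for each array of the lateral hypothalamus and the ventral tegmental area, the log2 signal of Ctxn1, the mean of 6 antisense controls, the mean of 9 spike-in controls and the mean of 4 dopamine neuron markers, by access group with bars for the mean and SD (n = 4 and 3 arrays per group). In the lateral hypothalamus the arrays with access, at 10.74 to 11.18 in Ctxn1, are apart from the no access arrays, at 9.01 to 9.45, and also in both control means, and overlap them in the dopamine markers.

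Whole-array profiles, with Ctxn1 left out, moved in the same sense. The correlation of a lateral hypothalamic array with the mean ventral tegmental profile was 0.906 to 0.912 for no, 0.885 to 0.896 for short and 0.878 to 0.888 for long access arrays. With the mean septum profile it was 0.881 to 0.896 for no, 0.902 to 0.911 for short and 0.902 to 0.920 for long access arrays. The septum was not alone in this. With the mean amygdala profile it was 0.869 to 0.876 for no access arrays, and 0.885, 0.886 and 0.890 for short access arrays 1, 2 and 3. With the nucleus accumbens profile it was 0.808 to 0.822, against 0.835, 0.831 and 0.835 for the same arrays. For the medial prefrontal profile these values were 0.813 to 0.826, against 0.831, 0.827 and 0.831. Values of the other arrays with access for these profiles are not given here. Of the ventral tegmental area and the septum, the no access arrays were nearer to the first and the others nearer to the second.

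The markers that define midbrain dopamine neurons were mixed. Over the 3 tested in the lateral hypothalamus, the median difference from no access was -0.22 with long and -0.37 with short access. Over all probe sets it was -0.03 and -0.07. Th was called higher with long access and Ddc lower with short access. The list mean of the 4 of 6 dopamine neuron genes on the array, Th, Slc6a3, Slc18a2 and Ddc, was 7.64 to 7.95 in no, 7.37 to 7.65 in short and 7.24 to 8.05 in long access lateral hypothalamic arrays, and 11.89 to 12.03 in ventral tegmental arrays. Slc18a2, the vesicular monoamine transporter, was at the floor in 2 no access and 3 short access arrays. Cck, the cholecystokinin precursor, read 11.54 to 11.88 in ventral tegmental arrays, but also 12.50 to 12.80 in medial prefrontal and 10.76 to 11.45 in amygdala arrays. The lateral hypothalamic means of Cck were 8.54 ± 0.19 in no, 7.80 ± 0.47 in short and 6.38 ± 0.65 in long access arrays. In the nucleus accumbens its means ran the same way, at 8.29 ± 0.21, 7.45 ± 0.74 and 6.98 ± 1.10. The list mean of 4 of 10 hypothalamic peptide genes overlapped between the groups, at 10.35 to 10.55, 10.28 to 10.56 and 10.43 to 10.59 in no, short and long access arrays. The part of tissue composition in the Ctxn1 difference was not tested.

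In the other 5 regions the access groups lay closer together. The 95% intervals of the 15 contrasts, each taken alone and not adjusted for their number, held 0 in all but 2, long against no access in the septum and long against short access in the ventral tegmental area. The lateral hypothalamic difference exceeded the mean of the other 5 regions by 1.83 ± 0.22 for long against no access, where the other 5 ranged from -0.43 to 0.20. It exceeded that mean by 1.83 ± 0.22 for short against no access too, where they ranged from -0.26 to 0.17.

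**Figure D3:**
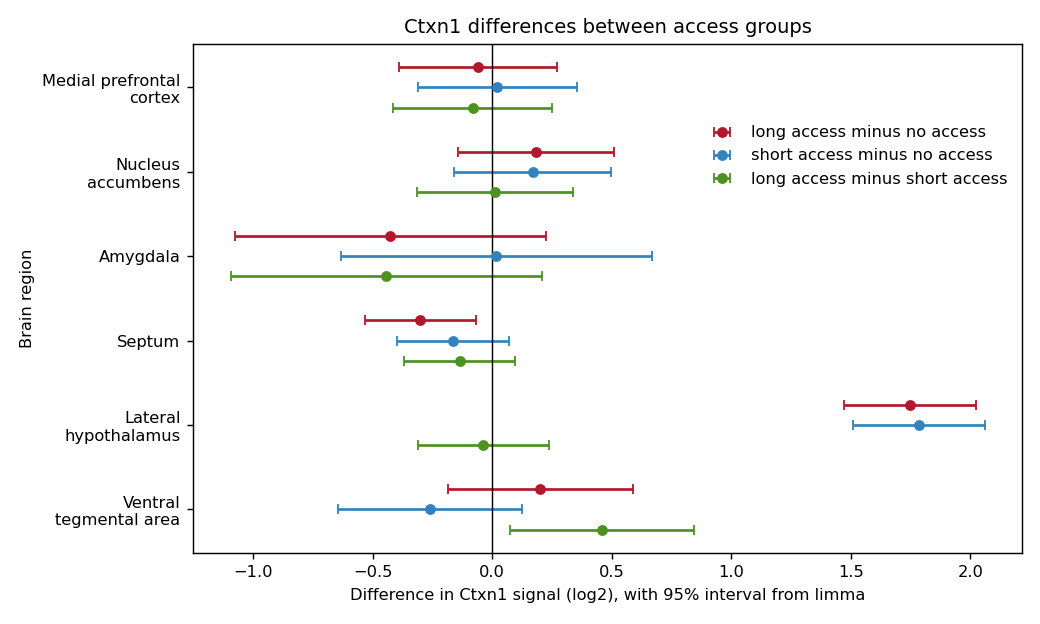
The log2 differences of Ctxn1 are drawn for each region and contrast with 95% intervals from limma. The 2 contrasts against no access in the lateral hypothalamus, at 1.75 and 1.79, lie clear of the 10 in the other regions, which range from -0.43 to 0.20.

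In the medial prefrontal cortex, where the signal was highest, the no access arrays read 12.82, 12.59 and 12.89, the short access arrays 12.91, 12.62 and 12.84, and the long access arrays 12.70, 12.61 and 12.82. The groups overlapped throughout. Long against no access gave -0.06 ± 0.15 (95% interval -0.39 to 0.27) and short against no access 0.02 ± 0.15 (-0.31 to 0.35). Long against short access gave -0.08 ± 0.15 (-0.41 to 0.25). By limma 0% of 680 probe sets were called in each of these contrasts, with 4, 2 and 2 at an unadjusted p under 0.05. The arrays numbered 3 of the 3 access groups had log2 ratios of 3′ to 5′ beta-actin of 1.35 to 1.93, against at most 0.78 on the other 6, and the part of RNA quality in these values was not tested.

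In the nucleus accumbens, the ventral striatal target of midbrain dopamine neurons, the no access arrays read 12.43, 12.73, 12.43 and 12.09. The short access arrays read 12.74, 12.43, 12.70 and 12.46, and the long access arrays 12.50, 13.05, 12.35 and 12.50. All groups overlapped. Long against no access gave 0.18 ± 0.15 (-0.14 to 0.51), short against no access 0.17 ± 0.15 (-0.16 to 0.50) and long against short access 0.01 ± 0.15 (-0.31 to 0.34). By limma 0% of 738 probe sets were called in each contrast, with 119, 75 and 71 at an unadjusted p under 0.05. The first of these was 0.03 without the long access array at 13.05 and 0.29 without the no access array at 12.73, and the intervals leave room for differences of up to 0.51 in this region.

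In the amygdala the spread was widest within 1 group. The no access arrays read 12.17, 12.47, 11.94 and 12.67, and the short access arrays 12.29, 12.06, 12.36 and 12.61. The long access arrays read 10.94, 11.58, 12.65 and 12.38, so that 2 of them were below all the other 10 arrays of the region. Long against no access gave -0.43 ± 0.30 (-1.08 to 0.22), where 0.137% of 732 probe sets were called. Without the long access array at 10.94 it was -0.11, and without the one at 12.65 it was -0.68. Long against short access gave -0.44 ± 0.30 (-1.09 to 0.21), or -0.13 and -0.70 without the same arrays, and short against no access 0.02 ± 0.30 (-0.63 to 0.67), with 0% of 732 called in both and 30 and 32 at an unadjusted p under 0.05.

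The 2 low amygdala arrays can be set beside 2 genes chosen for following Ctxn1 within regions, over arrays that include these 2, so that low values there follow in part from the choice. Map1a, which codes for a microtubule-associated protein of neurons, read 10.63 and 11.16 on them, against 11.32 to 12.22 on the other 10 amygdala arrays. Sox10, the transcription factor of the oligodendrocyte lineage, read 6.05 and 6.23, against 7.10 to 8.35. The mean of 6 oligodendrocyte genes was 9.88 on both, against 10.05 to 10.66 on the other 10. The part of dissection in these values was not tested.

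In the septum the no access arrays read 11.46, 11.10 and 11.44, the short access arrays 11.20, 11.06 and 11.25, and the long access arrays 10.88, 11.06 and 11.16. The means ran 11.33 ± 0.21, 11.17 ± 0.10 and 11.03 ± 0.15 (SD, n = 3 each) from no to long access, and the ranges overlapped. Long against no access gave -0.30 ± 0.11 (-0.53 to -0.07), where 2.31% of 736 probe sets were called. Short against no access gave -0.16 ± 0.11 (-0.40 to 0.07) with 1.9% called, and long against short access -0.14 ± 0.11 (-0.37 to 0.10) with 2.04% called.

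In the ventral tegmental area, where the signal was lowest, the no access arrays read 8.16, 8.34 and 8.64, the short access arrays 8.44, 7.96 and 7.97, and the long access arrays 8.76, 8.46 and 8.53. The long access arrays were all above the short access arrays, and the no access arrays overlapped both. Long against short access gave 0.46 ± 0.18 (0.08 to 0.85), a 1.38-fold higher signal, or 0.76 ± 0.33 with the spike-in covariate, where 2.63% of 722 probe sets were called and 9.83% lay higher without overlap.

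The contrasts of the ventral tegmental area against no access had opposite signs, with intervals that hold 0. Long against no access gave 0.20 ± 0.18 (-0.18 to 0.59) with 2.91% called, and short against no access -0.26 ± 0.18 (-0.64 to 0.13) with 0.831% called. With the spike-in covariate they were 0.82 ± 0.61 and 0.06 ± 0.35, so that the second changed sign.

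The genes most like Ctxn1 were found by Pearson's r over the 18 means of region and access, as a description over groups that share their scaling and their dissections. Of 775 probe sets of 521 genes, 26 had r over 0.9, and the median was -0.08. The highest was Cx3cl1, the membrane-bound neuronal chemokine fractalkine, at 0.967, whose other 3 probe sets gave 0.961, 0.915 and 0.832. Svop, a transporter-like protein of synaptic vesicles, had 0.964. Grik5, a kainate receptor subunit, had 0.958. These genes are all expressed in neurons.

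Camk2b, a subunit of the calcium/calmodulin-dependent kinase II, had 0.954, Syt5, a synaptotagmin, had 0.948, and Egr1, an activity-induced transcription factor, had 0.940. The other Camk2b probe set gave 0.917, and the other 3 of Egr1 gave 0.854, 0.892 and 0.741. The span between the highest and the lowest group mean was 4.66 for Ctxn1, against 3.37 for Cx3cl1, 1.93 for Svop, 2.20 for Grik5, 3.57 for Camk2b, 1.79 for Syt5 and 3.98 for Egr1, on the log2 scale.

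At the other end were Scn7a, a sodium channel subunit, at -0.971, Nefm, the medium neurofilament protein, at -0.964, and Slc2a1, the glucose transporter of the blood-brain barrier, at -0.960. The Scn7a probe set was at the floor on 31 of 63 arrays. Nefm and Slc2a1 were high where Ctxn1 was low, with no access means of 12.81 and 11.86 in the ventral tegmental area and 10.07 and 10.55 in the medial prefrontal cortex.

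**Figure D4:**
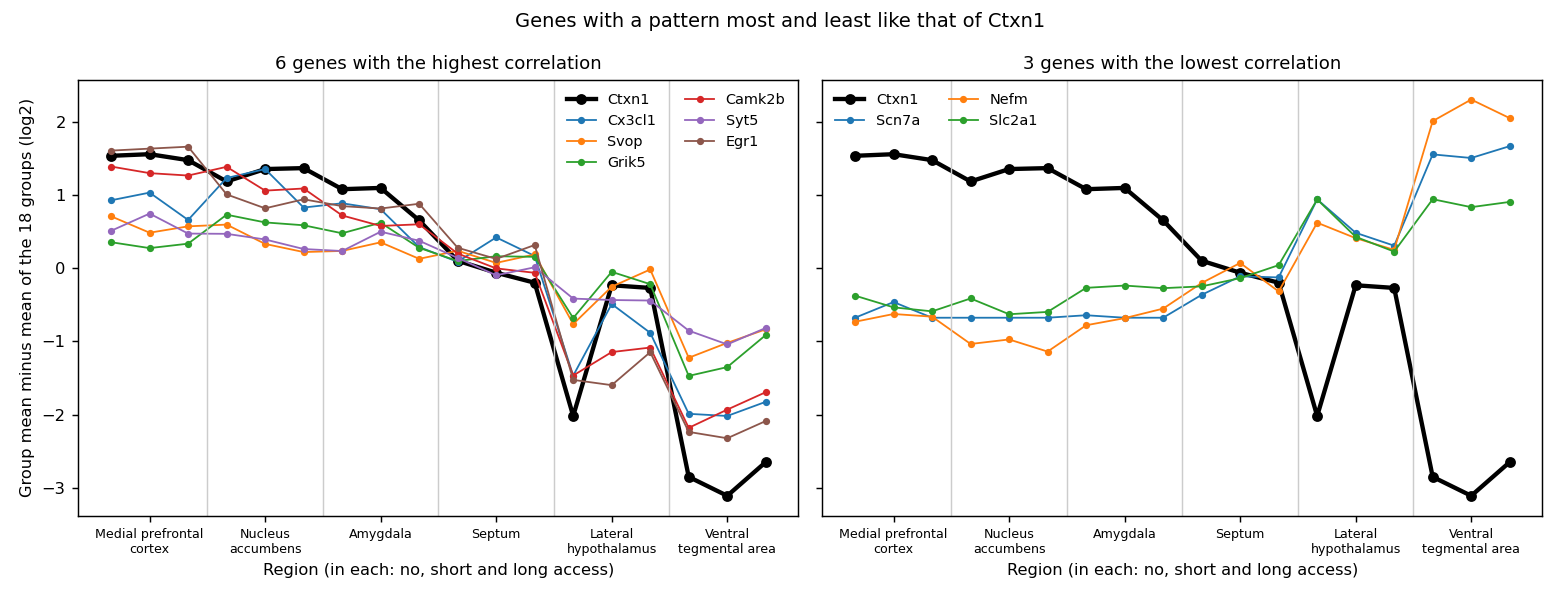
Lines join the log2 means of the 18 groups, each less the gene's mean over them, for Ctxn1 with the 6 most like genes in the left panel and with the 3 least like in the right panel, in the order no, short and long access within each region. The 6 genes share the lower level in the ventral tegmental area, while their differences with access in the lateral hypothalamus differ in size.

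These genes were picked for their likeness over regions, and Ctxn1 for its step in the lateral hypothalamus, so that smaller steps in them follow in part from the choice. Without the 3 lateral hypothalamic groups, the 4 highest r over 15 means were 0.989 for Camk2b, 0.986 for Egr1, 0.985 for Camk2a and 0.983 for Itpka, a kinase of dendritic spines. Camk2a and Itpka had no access means at the floor of 5.00 in the ventral tegmental area, so that their r leans on floored values, and Itpka was at the floor in the lateral hypothalamus too. Against no access, Camk2b was higher by 0.38 with long and 0.32 with short access, Cx3cl1 by 0.59 and 0.98, Svop by 0.75 and 0.51, and Grik5 by 0.46 and 0.63. Syt5 differed by -0.03 and -0.02 and the Egr1 probe set most like Ctxn1 by 0.38 and -0.07, and all of these were smaller than the differences of 1.75 and 1.79 of Ctxn1.

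Within regions, after each region's mean was taken off, a different set of genes followed Ctxn1 over the 63 arrays. Map1a had r = 0.865, Sox10 0.766, Slc32a1, the vesicular GABA transporter, 0.701, and Gabbr2, a GABA-B receptor subunit, 0.680. The median over the 775 probe sets was -0.08. Over the 51 arrays outside the lateral hypothalamus, r was 0.814 for Map1a, 0.672 for Sox10, 0.268 for Slc32a1 and 0.542 for Gabbr2.

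For Sox10 and Gabbr2 the values outside the lateral hypothalamus rested largely on the 2 low amygdala arrays. Without them r over 49 arrays was 0.634 for Map1a, 0.336 for Sox10, 0.264 for Slc32a1 and 0.184 for Gabbr2. Spearman's rho over 51 arrays was 0.705 for Map1a, 0.387 for Sox10, 0.346 for Slc32a1 and 0.343 for Gabbr2. Over 49 it was 0.701, 0.259, 0.256 and 0.097 in the same order. Within single regions r was highest in the lateral hypothalamus for each of these genes, at 0.86 to 0.98. It was lowest in the nucleus accumbens for Map1a, at 0.37, and Slc32a1, at 0.05. For Sox10 the lowest was -0.08 in the medial prefrontal cortex, and for Gabbr2 -0.62 in the ventral tegmental area. The second Map1a probe set, which was dim at a mean of 6.01, had r = 0.114 over the 63 arrays. The other Slc32a1 probe set had 0.394, and the other 2 of Gabbr2 had 0.135 and 0.125, against 0.701 and 0.680 for those named.

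In the lateral hypothalamus all 4 genes were higher with access, as Ctxn1 was. They were chosen for following Ctxn1 over arrays that include these, so that this follows in part from the choice. Map1a read 10.90 ± 0.20 in no, 11.70 ± 0.15 in short and 12.10 ± 0.09 in long access arrays (SD, n = 4 each). Sox10 read 8.29 ± 0.14, 9.49 ± 0.17 and 9.43 ± 0.11. Slc32a1 read 11.67 ± 0.09, 12.34 ± 0.07 and 12.36 ± 0.10, and Gabbr2 10.39 ± 0.12, 11.27 ± 0.15 and 10.87 ± 0.21. Their no access means lay near those of no access ventral tegmental arrays for Map1a at 10.87, Sox10 at 8.06 and Gabbr2 at 10.13. They lay further above them for Slc32a1 at 11.14. Other regions were about as near for 2 of these, with no access means of 8.54 for Sox10 in the nucleus accumbens and 10.06 for Gabbr2 in the septum.

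Markers of cell types were read in the lateral hypothalamus beside Ctxn1, from lists with 1 probe set per gene. Of 12 pan-neuronal genes tested for long against no access, 4 rose and 1 fell, where 13.4% of all 718 probe sets rose and 16.3% fell, with a median difference of 0.02 against -0.03 over all probe sets. Syn1, a synaptic vesicle phosphoprotein, rose by 1.05 ± 0.11, Rab3a, a vesicle GTPase, by 0.88 ± 0.12, and Mapt, which codes for tau, by 0.44 ± 0.06. For short against no access 3 rose and 0 fell, where 10.3% of all rose and 12.1% fell, among them Syn1 by 0.76 ± 0.11 and Mapt by 0.59 ± 0.06, and the median was -0.09 against -0.07 over all.

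The forebrain projection neuron list, like Ctxn1, was highest in the medial prefrontal cortex and lowest in the ventral tegmental area, though it was higher in the amygdala than in the nucleus accumbens. Its mean over 13 genes was 10.95 to 11.10 in medial prefrontal, 10.47 to 10.79 in amygdala, 9.73 to 10.09 in accumbens and 8.57 to 8.71 in ventral tegmental arrays. In the lateral hypothalamus it was 8.75 to 8.92 in no, 8.67 to 8.80 in short and 8.62 to 8.73 in long access arrays. Of 11 tested, 1 rose and 3 fell for long against no access, where 13.4% of all probe sets rose and 16.3% fell. The median was 0.09, against -0.03 over all probe sets. Nptxr, the neuronal pentraxin receptor, rose by 0.44 ± 0.11, while Cck fell by 2.16 ± 0.29 and Egr1, in the probe set of its highest mean, by 0.72 ± 0.11, while the Egr1 probe set most like Ctxn1 was at 0.38. For short against no access 3 rose and 2 fell, where 10.3% of all rose and 12.1% fell, with a median of 0.11 against -0.07 over all.

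Oligodendrocyte genes went both ways. Of 6 tested, 2 rose and 3 fell for long against no access, where 29.7% of all probe sets were called, and 3 rose and 1 fell for short against no access, where 22.4% were called, with medians of -0.09 and 0.23. Sox10 rose by 1.14 ± 0.11 with long and 1.20 ± 0.11 with short access, and Mag, a myelin-associated glycoprotein, by 0.55 ± 0.08 and 0.51 ± 0.08. Mog, another myelin protein, fell by 0.30 ± 0.06 and 0.19 ± 0.06. The mean of the 6 genes was 11.95 to 12.02 in no, 12.22 to 12.35 in short and 12.07 to 12.20 in long access arrays. The arrays with access were thus above those without it in this mean. It includes Sox10, which was also picked for following Ctxn1, while with long access 3 of the 6 genes fell and the median was -0.09.

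The remaining lists were read against all 718 probe sets. Of these 13.4% rose and 16.3% fell with long access, and 10.3% rose and 12.1% fell with short access. Of 7 astrocyte genes 1 rose and 3 fell for long against no access (median -0.18), where Vim, an intermediate filament protein, fell by 0.84 ± 0.16, Apoe by 0.61 ± 0.11, and Kcnj10, a glial potassium channel, rose by 0.91 ± 0.20. For short against no access 0 rose and 1 fell. All 3 microglia and immune genes tested fell with long access, B2m by 0.67 ± 0.10, Il18 by 0.59 ± 0.14 and C4b by 1.01 ± 0.32, and 1 fell with short access. Of the 3 dopamine neuron genes tested, Th rose by 0.52 ± 0.15 with long access and Ddc fell by 0.37 ± 0.12 with short access. Of 3 hypothalamic peptide genes 0 were called in either contrast, and of 4 striatal genes 0 with long access and 1 with short access. With the spike-in covariate fewer were called for long against no access in most lists. There were 3 rises and 1 fall among pan-neuronal genes, and 0 and 2 in the forebrain list. The oligodendrocyte and astrocyte lists had 1 and 0 each, 0 immune genes were called, and 1 striatal gene rose. Calls over all 718 probe sets in this contrast were 213 in the main fit and 62 to 237 over the alternatives. The lower counts are therefore not read as a trait of these lists. The part of these cell type markers in the Ctxn1 difference was not tested.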

How the data were processed

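The authors deposited a table of linear signal intensity for each probe set on 63 arrays. Per the submitters' processing notes the tool was MAS5, whose settings and detection calls are not given in the sources used here. The labels' protocols give 1 to 5 µg of total RNA as input for labelled cRNA. The 2% trimmed mean of the deposited intensity was 250.8 to 251.3 on all arrays, no 2 columns were identical, and the highest correlation between arrays was 0.986.

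Signals were multiplied so that the 1263 non-control probe sets had a 2% trimmed mean of 500 on each array, floored at 32 and turned to log2. Probe sets with a mean signal of at least 100 in a region were tested. limma 3.58.1 in R 4.3.3 (lmFit, eBayes with an intensity trend) fitted the 3 access groups of each region, with Benjamini-Hochberg adjustment over all probe sets of a contrast. The lateral hypothalamus was set against the other 5 regions in 1 fit of 18 groups. The fit was tested on simulated data. Array number limits the precision, since arrays have no counts.

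Ctxn1 was chosen with its signal over all 63 arrays known, so p-values planned for its contrasts are not given. The gene, the marker lists, the tests and the alternatives were chosen with earlier results of these data known. Genes named beside Ctxn1 were the 6 most and 3 least like it over 18 group means, the 4 most like it within regions, the 4 most like it without the lateral hypothalamus, up to 3 genes per list by p, and the region markers. The alternatives were other scalings, floors, filters, variance models, weights, sample sets and a replicate block.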

Additional observations from a re-analysis of the deposited data

Results flagged for a closer look

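Listed here are contrasts where every array of an access group lay on 1 side of the mean of the group it was set against, with the opposite side in another region. Of 592 probe sets tested in all 6 regions, 49.5%, 44.3% and 42.4% met this for long against no, short against no and long against short access, so that it is common here. For long against no access the log2 difference was -0.30 in the septum, 1.75 in the lateral hypothalamus and 0.20 in the ventral tegmental area. For short against no access it was 0.17 in the nucleus accumbens, -0.16 in the septum and 1.79 in the lateral hypothalamus. In the septum the difference of long from short access was -0.14, and in the ventral tegmental area it was 0.46. The difference between regions was not tested in any of these 3 contrasts. None of the 9 groups of 4 arrays held an array of Ctxn1 far enough from the rest to be picked out, the highest ratio of gap to range being 0.775 in long access nucleus accumbens.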

How the results depend on the processing

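The lateral hypothalamic differences of Ctxn1 from no access kept their sign under each setting tried. Long against short access there, at -0.04, did not, with 0.06 under the spike-in covariate and -0.11 to 0.04 on leaving out 1 array. Leaving out 1 array at a time gave 1.68 to 1.83 for long and 1.72 to 1.86 for short against no access in the lateral hypothalamus. With the spike-in covariate the long access difference moved to 2.04 there. That covariate turned long against short access in the nucleus accumbens to -0.00971 and short against no access in the ventral tegmental area to 0.060. Array weights turned short against no access to -0.0105 in the medial prefrontal cortex and to -0.0309 in the amygdala. Leaving out 1 array gave ranges across 0 of -0.14 to 0.10 for long against short access in the nucleus accumbens, -0.146 to 0.00102 for long and -0.0652 to 0.105 for short against no access in the medial prefrontal cortex, and -0.11 to 0.14 for short against no access in the amygdala. Array weights took the amygdala differences of long access to -0.17 from no and -0.14 from short access. The cause was not tested.

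The main fit did not pair arrays by replicate number. In each region at least 1 correlation of same-numbered deviations was at or under 0.1. These correlations ran from -0.05 to 0.73 in the medial prefrontal cortex and from -0.13 to 0.30 elsewhere. In the medial prefrontal cortex they were 0.38 to 0.53 for number 1 and 0.54 to 0.73 for number 3. Arrays that shared these numbers were thus alike there, which the main fit leaves out. The replicate block cannot change a difference of means, since each number occurs once in each access group, and it acts on the SE alone. With it long against no access was 1.75 ± 0.12 in the lateral hypothalamus. In the medial prefrontal cortex it was -0.06 ± 0.10, where the SE was 0.15 without the block. Counts of called probe sets moved more than the values of Ctxn1. In the lateral hypothalamus 213 probe sets were called for long against no access, against 62 to 237 over the alternatives, 161 for short against no access, against 68 to 203, and 64 for long against short access, against 15 to 103. In the septum 17, 14 and 15 were called, against 0 to 29, 0 to 31 and 0 to 20. In the ventral tegmental area 21, 6 and 19 were called, against 0 to 47, 0 to 10 and 0 to 33. Among marker genes called for long against no access, Mbp turned to 0.05 under quantile normalization and Tf to 0.02 with the spike-in covariate.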
